A study of Mus musculus with 4 samples.

Results

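Respiratory complex I, the first enzyme of the mitochondrial electron transport chain, was described here through the nuclear genes whose names begin with Nduf, in libraries labelled as bone marrow megakaryocytes of old and young mice. All rows of the expression table with such a name were taken, except names ending in -ps, which gave 52 of 56793 rows. They comprised 37 subunits of the complex, 8 assembly factors named Ndufaf, the pair Ndufa4 and Ndufa4l2, and 5 letter-suffixed copies (Ndufa11b, Ndufb11b, Ndufb4b, Ndufb4c and Ndufs6b). There were 2 Old and 2 Young libraries, all of genotype Blc6 in the labels' spelling, from megakaryocytes isolated by flow cytometry and made from poly(A)-selected RNA. The labels give no ages, gate or number of animals for either group, so p-values reflect the spread of these 4 libraries alone, and that spread may be technical. The study's title concerns the regulation of blood stem cell ageing by platelet factor 4, a product of megakaryocytes.

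Complex I takes electrons from NADH, passes them along a chain of iron-sulphur clusters to ubiquinone, and pumps protons across the inner mitochondrial membrane. The N module holds the NADH site and the Q module the ubiquinone site, both in the arm that reaches into the matrix, and the membrane arm does the pumping. Most nuclear core subunits carry cofactors that pass the electrons on, and accessory subunits surround the core. Membrane core subunits are encoded in the mitochondrial genome, and assembly factors help to build the enzyme without staying in it. Megakaryocytes are large polyploid cells whose growth and platelet release draw on mitochondrial energy supply.

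Levels are in TPM, a relative abundance corrected for transcript length in which each library sums to a fixed total, so that sequencing depth is unknown. Immunoglobulin genes took 13.3% and 13.1% of that total in the Old libraries and 1.03% and 0.896% in the Young libraries, which lowers every other gene's TPM in Old. Changes were therefore computed both as deposited and on values rescaled after leaving the immunoglobulin genes out. Over all genes tested, the median log2 change as deposited was -0.10, and after this removal it was 0.07. Megakaryocyte markers were present, with the 10 genes summing to 896 and 1336 TPM in Old and 1623 and 2134 TPM in Young, but 10 neutrophil markers summed to 121105 and 120576 TPM in Old and 142297 and 136232 TPM in Young. The values below are thus of the libraries as labelled, and the part of other cells in them was not tested. In such bulk samples fewer cells of a type and less RNA per cell cannot be told apart.

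Complex I genes were lower in Old than in Young libraries, by similar amounts in subunits and assembly factors. Of the 52 genes, 46 averaged 1 TPM or more over the libraries and were tested with limma on log2(TPM + 1), a scale that understates the change of low genes. As deposited, 29 of the 46 fell and 0 rose at a limma adjusted p under 0.05, where 14.7% of all 16073 genes tested fell and 5.2% rose. All 46 had a negative log2 change, as did 62.4% of all genes, and 42 were lower at an unadjusted p under 0.05, as were 28% of all genes. Among genes averaging 20 TPM or more the background was higher, with 28.2% called lower and 5.1% higher, and 25 of the 34 subunits at that level fell. After removal of immunoglobulin genes only Ndufv2 of the 46 fell by limma's adjusted p, while 3.15% of all genes fell and 8.02% rose (5.28% and 8.42% of those averaging 20 TPM or more), and 17 of the 46 were lower at an unadjusted p under 0.05, against 10.3% of all genes. A negative change was then seen in 44 of the 46, against 39.6% of all genes. With median-ratio scaling Ndufv2 and Ndufa5, a subunit of the matrix arm, fell, while 5.6% of all genes fell and 5.93% rose. With 1 library left out, all 46 changes stayed negative. Among all genes 65.8% were negative without Young replicate 1, 58.8% without Young replicate 2, 68% without Old replicate 1 and 56.2% without Old replicate 2. The median log2 change of the 46 was -0.39, -0.39, -0.32 and -0.46 in the same order. Each of these fits leaves a single library in a group, and few genes of any kind were called without a Young library.

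The order of the groups was also the same in nearly every member. Both Old libraries lay below both Young libraries in 36 of 37 subunits and 8 of 8 assembly factors, against 46.1% of all genes tested. With immunoglobulin genes removed this held for 32 subunits and 6 assembly factors, against 24.1% of genes. The one exception as deposited was Ndufb2.

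**Figure D1:**
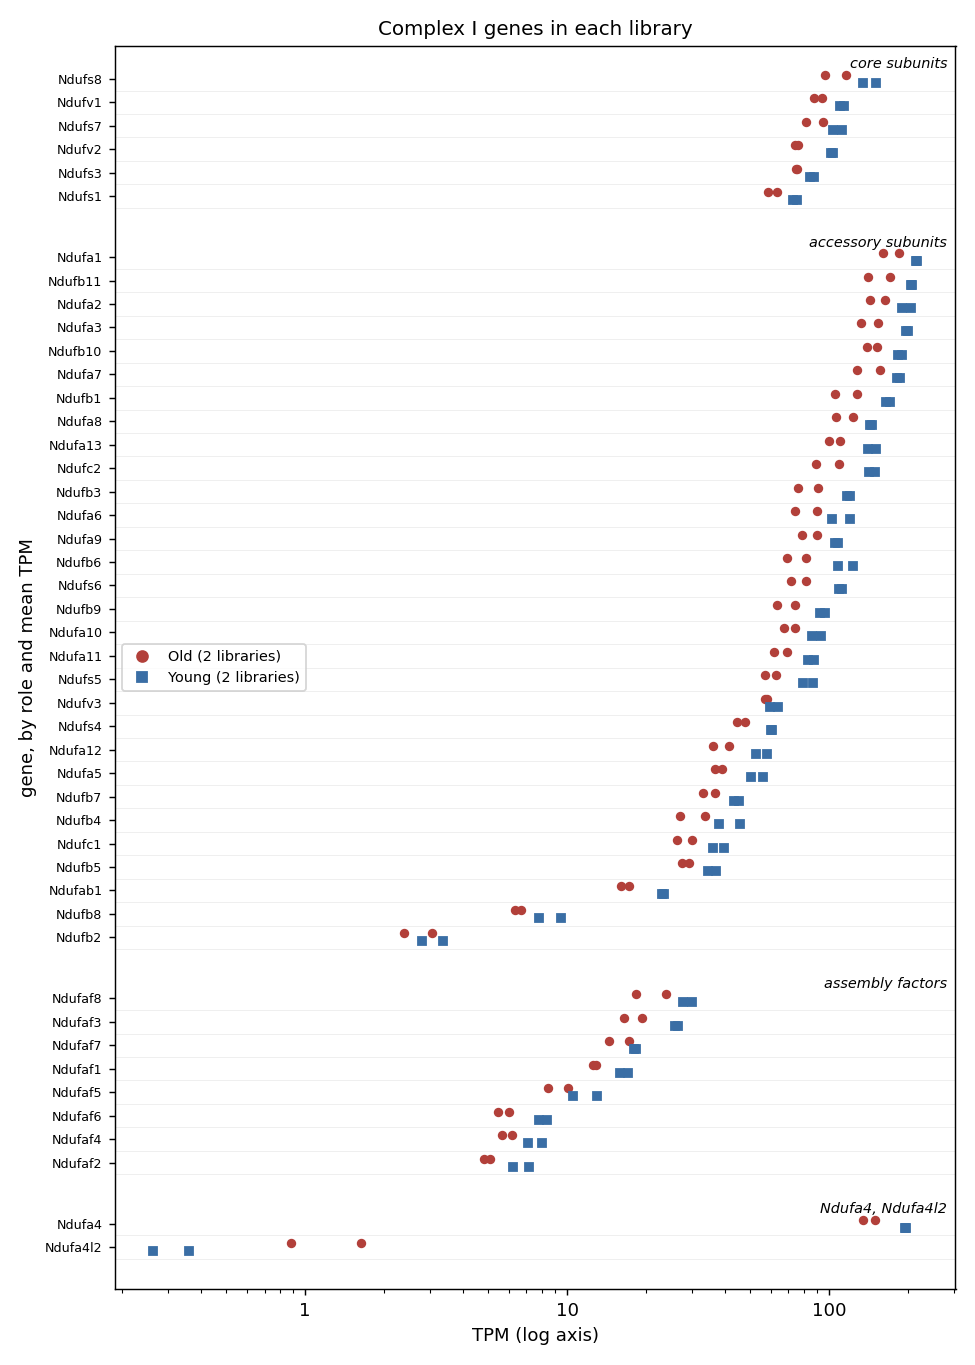
TPM of 36 subunits, 8 assembly factors, Ndufa4 and Ndufa4l2 in each library, on a log axis, with Old libraries as red circles and Young libraries as blue squares, ordered by role and mean level. The circles lie left of the squares in every row but Ndufb2, where they overlap, and Ndufa4l2, where Old is higher.

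Of the 7 core subunits, 4 fell as deposited, with a median log2 change of -0.31. As deposited 14.7% of all genes tested fell, and 28.2% of those averaging 20 TPM or more. After removal of immunoglobulin genes the median was -0.12 and 1 fell, against 3.15% of all genes (5.28% of those averaging 20 TPM or more). A count of 1 cannot be told from those shares. In the N module, Ndufv2, which carries an iron-sulphur cluster beside the site where NADH hands over its electrons, was at 73.9 and 76.2 TPM in Old and 102 and 104 TPM in Young libraries. The replicates of each group nearly coincided and the groups stood well apart. The log2 change was -0.45 (SE 0.06, limma adjusted p = 0.0168), and with immunoglobulin genes removed it was -0.26 (adjusted p = 0.0449), within a range of adjusted p from 0.0131 to 0.123 over all fits.

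Ndufv1, the subunit that binds NADH and its flavin acceptor, was at 87.8 and 93.7 TPM in Old and 111 and 114 TPM in Young libraries, and fell by 0.31 on the log2 scale (limma adjusted p = 0.0343). Ndufs1, the largest core subunit and the carrier of further iron-sulphur clusters, was at 63.4 and 58.4 TPM in Old and 72.6 and 75.9 TPM in Young libraries, and fell by 0.28 (limma adjusted p = 0.0491). The groups did not overlap in either gene, and neither passed with immunoglobulin genes removed. Ndufs1 was the only core subunit that was higher in Old replicate 1 than in Old replicate 2.

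In the Q module, Ndufs7, which holds the last cluster before ubiquinone, was at 81.6 and 94.7 TPM in Old and 104 and 112 TPM in Young libraries (log2 change -0.29, limma adjusted p = 0.0840). Ndufs8, which carries the clusters that lead to it, was at 96.5 and 116 TPM in Old and 135 and 152 TPM in Young libraries (log2 change -0.43, limma adjusted p = 0.0558). The Ndufs8 libraries were spread within each group, with an SE of 0.11, and the groups did not overlap in either gene. Ndufs3, which binds no cluster, was at 75.0 and 75.3 TPM in Old and 84.7 and 87.4 TPM in Young libraries (log2 change -0.19, limma adjusted p = 0.0703). With immunoglobulin genes removed the change of Ndufs3 was close to 0, at -0.0049 (adjusted p = 0.965).

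The accessory subunits spanned a wider range of levels, with means of 2.72 to 173 TPM in Old and 3.07 to 216 TPM in Young libraries, and 22 of 30 fell as deposited. Their median log2 change was -0.41, and -0.23 with immunoglobulin genes removed. After the removal 0 fell by limma's adjusted p, against 3.15% of all genes. At an unadjusted p under 0.05, 14 were then lower, against 10.3% of all genes. All subunits not assigned to the N or Q module were grouped as membrane arm, so that group also holds those at its junction with the matrix arm. Of these 22 subunits 17 fell, with a median of -0.41. In the N module 7 of 10 fell, with a median of -0.38, and in the Q module 2 of 5, with a median of -0.31. As deposited 14.7% of all genes tested fell, and 28.2% of those averaging 20 TPM or more. The 2 of 5 in the Q module cannot be told from the latter share. These differences between modules were not tested.

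The 5 most negative changes among subunits were all in accessory genes, 4 of them in the membrane arm. Ndufb6 was at 69.3 and 81.6 TPM in Old and 124 and 109 TPM in Young libraries, a log2 change of -0.62 (SE 0.11, limma adjusted p = 0.0261). Ndufc2 was at 89.4 and 109 TPM in Old and 149 and 143 TPM in Young libraries, a log2 change of -0.56 (limma adjusted p = 0.0293). In both genes every Old library was lower than every Young library, and Old replicate 1 was the lowest of the 4. Ndufb1 was at 106 and 128 TPM in Old and 171 and 166 TPM in Young libraries and fell by 0.52 (limma adjusted p = 0.0315). Ndufb3 was at 76.4 and 90.5 TPM in Old and 117 and 121 TPM in Young libraries and fell by 0.51 (limma adjusted p = 0.0282). These 4 genes encode small proteins of the membrane arm, and their adjusted p lay between 0.0536 and 0.0804 with immunoglobulin genes removed.

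Ndufs6, a zinc-binding N module subunit that joins late in assembly, was at 71.8 and 81.8 TPM in Old and 109 and 113 TPM in Young libraries. It fell by 0.53 on the log2 scale (SE 0.08, limma adjusted p = 0.0227), and by 0.34 with immunoglobulin genes removed, where it just missed the threshold (adjusted p = 0.0504). A near-identical copy, Ndufs6b, was at 0.161 and 0 TPM in Old and 0.501 and 0.258 TPM in Young libraries. The sources used here do not say how reads shared by the pair were counted, so the split between them is uncertain. Ndufa12, the N module subunit that takes the place of the assembly factor Ndufaf2 in the finished enzyme, was at 36.0 and 41.5 TPM in Old and 52.8 and 58.1 TPM in Young libraries, and fell by 0.51 (limma adjusted p = 0.0297).

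Ndufa13, also known as GRIM-19, was at 100.3 and 109.97 TPM in Old and 151 and 141 TPM in Young libraries, and fell by 0.47 (limma adjusted p = 0.0237). Ndufa3 was at 132 and 154 TPM in Old and 197 and 200 TPM in Young libraries, and fell by 0.47 (limma adjusted p = 0.0282). Both belong to the membrane arm, and in both the groups were apart by more than their replicates. The 20 other subunits had log2 changes of -0.48 to -0.33, and 14 of them fell, against 14.7% of all genes tested. Ndufa1, the most abundant subunit, was among the 6 that did not pass, at 160 and 185 TPM in Old and 217 and 215 TPM in Young libraries (limma adjusted p = 0.0522).

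A pair of accessory subunits stood out by small changes. Ndufv3, a subunit of the N module that binds no cofactor, was at 57.0 and 58.1 TPM in Old and 59.4 and 63.8 TPM in Young libraries (log2 change -0.09, limma adjusted p = 0.342), and after removal of immunoglobulin genes its change was 0.09 (adjusted p = 0.381). Ndufb2, a membrane arm subunit, was the lowest subunit, at 3.04 and 2.39 TPM in Old and 2.79 and 3.35 TPM in Young libraries, and its groups overlapped (log2 change -0.13, limma adjusted p = 0.599, and 0.0079 after the removal). Ndufb8, another membrane arm subunit, was also low, at 6.68 and 6.31 TPM in Old and 7.85 and 9.48 TPM in Young libraries (limma adjusted p = 0.103).

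**Figure D2:**
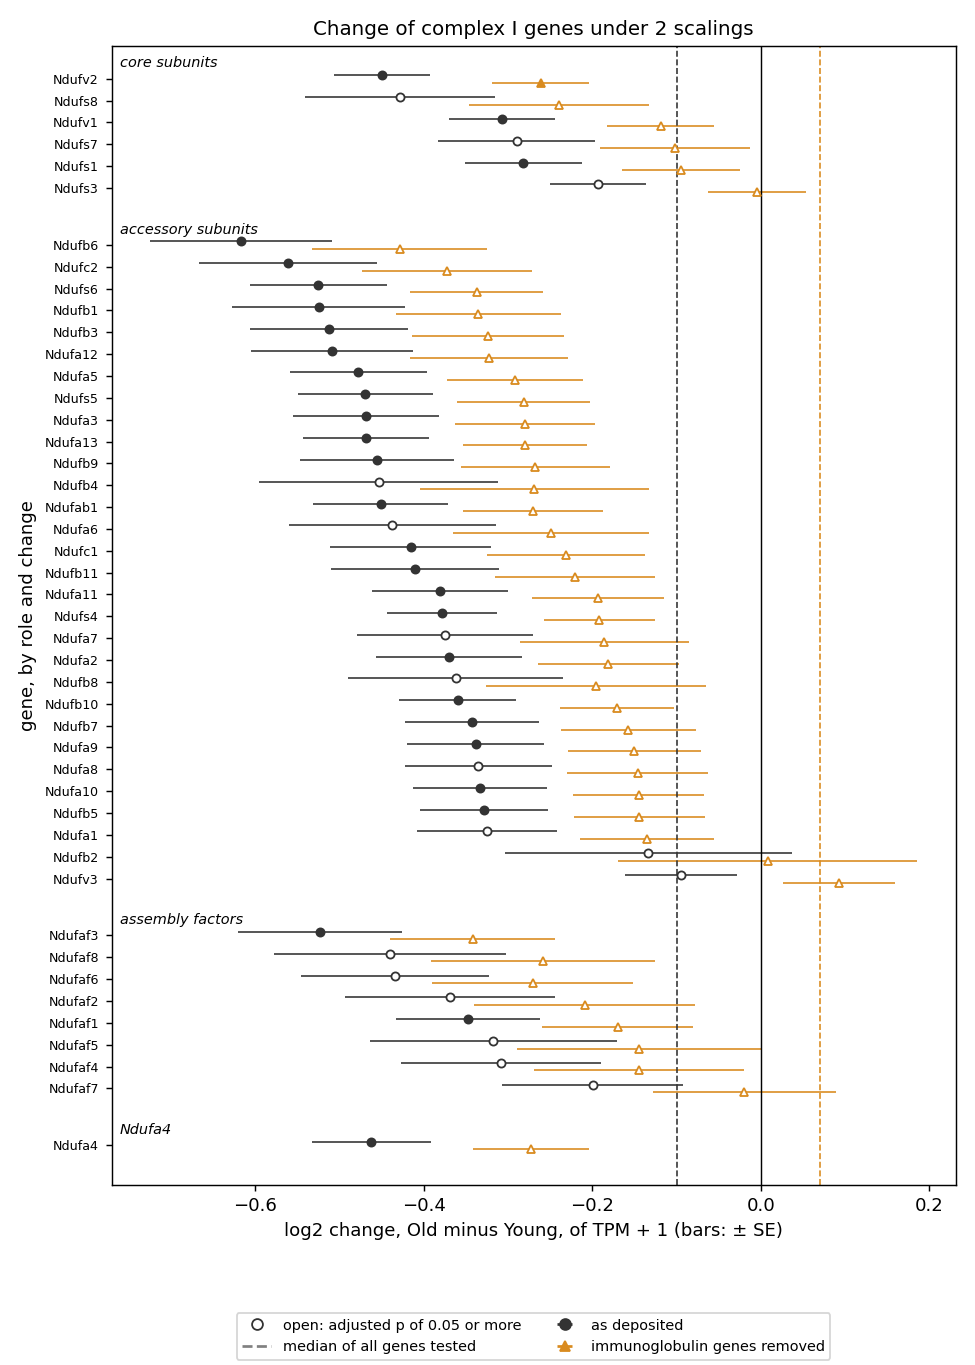
Log2 change of TPM + 1, Old minus Young, with its SE from limma (n = 2 libraries each), for 45 of the genes tested, as deposited (dark circles) and with immunoglobulin genes removed (orange triangles); filled symbols have an adjusted p under 0.05, and dashed lines mark the median of all genes tested under each scaling. All circles lie below 0 and 28 are filled, whereas 1 triangle is filled, that of Ndufv2, and Ndufb2 and Ndufv3 move above 0.

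Promoters of the members were searched because the genes changed in the same direction. RefSeq sequences on GRCm38.p6, from 250 bases before to 50 bases after each gene's start, were matched by symbol for 33 of the 37 subunits and 7 of the 8 assembly factors. Searched on both strands were the letters of the nuclear respiratory factor NRF-1, which are GCGC on either side of any 2 bases and read the same on either strand, CCGGAAG, a core bound by ETS factors such as GABP, and the motif of the zinc finger factor YY1. The NRF-1 letters were in 27.3% of subunit promoters, against 14.2% of 10418 promoters of genes tested and 7.0% of all 27025. The YY1 letters were in 12.1%, against 2.33% and 0.995%, and the ETS core was in 12.1%, against 19.7% and 9.93%. Of the 7 assembly factor promoters, 2 held the NRF-1 letters, 2 the ETS core and 1 the YY1 letters. A match describes these letters in this window and is no evidence of binding. Shown are the 80 bases that end just before the start, from the core subunit with the smallest adjusted p (Ndufv2, chr17:66101560-66101639), an accessory subunit among the 5 most negative (Ndufs6, chr13:73328483-73328562) and a core subunit with little change (Ndufs3, chr2:90904722-90904801), all on the minus strand and written 5′ to 3′, with the motif letters in capitals.
Ndufv2: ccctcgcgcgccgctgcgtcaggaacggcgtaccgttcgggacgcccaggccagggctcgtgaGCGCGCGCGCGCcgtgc
Ndufs6: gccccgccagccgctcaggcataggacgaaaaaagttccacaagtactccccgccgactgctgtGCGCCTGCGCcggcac
Ndufs3: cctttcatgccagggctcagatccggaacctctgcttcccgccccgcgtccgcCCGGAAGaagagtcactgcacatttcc
The capitals in Ndufv2 are a pair of overlapping NRF-1 matches, those in Ndufs6 a single one, and those in Ndufs3 an ETS core. Ndufb6, the subunit with the most negative change, held an ETS core in its window and no NRF-1 letters. Whether a motif went with the size of the change was not tested.

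The assembly factors were expressed far below the subunits, with a median over genes of 11.02 TPM in Old and 14.2 TPM in Young libraries, while the subunits had a median of 75.4 TPM in Old and 107 TPM in Young libraries. Over the 8 genes the median log2 change was -0.36, and -0.19 after removal of immunoglobulin genes, against -0.38 and -0.20 for subunits. As deposited 2 of 8 fell, Ndufaf1 and Ndufaf3, where 14.7% of all genes tested fell. After the removal 0 did by limma's adjusted p, against 3.15% of all genes, and 1 was lower at an unadjusted p under 0.05, against 10.3%. Counts this small cannot be told from those shares. The SEs of the assembly factors on the log2 scale were 0.09 to 0.15, against 0.06 for Ndufv2. The roles given below were largely worked out in human cells.

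Ndufaf1, which helps to build the membrane arm, was at 12.6 and 12.9 TPM in Old and 15.97 and 17.1 TPM in Young libraries, and fell by 0.35 on the log2 scale (limma adjusted p = 0.0489). Ndufaf3, which binds the Q module as it forms, was at 16.6 and 19.3 TPM in Old and 25.9 and 26.5 TPM in Young libraries, and fell by 0.52 (SE 0.10, limma adjusted p = 0.0288). Its partner Ndufaf4 was at 6.16 and 5.67 TPM in Old and 7.10 and 8.04 TPM in Young libraries (log2 change -0.31, limma adjusted p = 0.124). The groups did not overlap in these 3 genes.

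Ndufaf2, a relative of Ndufa12 that holds its place during assembly, was at 4.81 and 5.07 TPM in Old and 7.18 and 6.20 TPM in Young libraries (log2 change -0.37, limma adjusted p = 0.0939). Ndufaf5, which hydroxylates Ndufs7, was at 8.43 and 10.1 TPM in Old and 13.1 and 10.6 TPM in Young libraries (log2 change -0.32, limma adjusted p = 0.176). Ndufaf8, which works with Ndufaf5, was at 18.4 and 23.9 TPM in Old and 30.0 and 27.7 TPM in Young libraries (log2 change -0.44, limma adjusted p = 0.0803). All 3 were lower in both Old libraries, with a narrow gap for Ndufaf5. Ndufaf6, needed early in the formation of the Q module, was at 5.99 and 5.47 TPM in Old and 8.37 and 7.80 TPM in Young libraries (log2 change -0.43, limma adjusted p = 0.0538). Ndufaf7, a methyltransferase, was at 17.2 and 14.4 TPM in Old and 18.4 and 18.1 TPM in Young libraries (log2 change -0.20, limma adjusted p = 0.231). Ndufaf7 had the smallest change of the 8, and after removal of immunoglobulin genes it was -0.02 (adjusted p = 0.921).

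Sums over genes set subunits beside assembly factors in each library, in ratios that no scaling of a library moves. The 37 subunits summed to 2784 and 3154 TPM in Old and 3932 and 3913 TPM in Young libraries, and the mean was 24.3% lower in Old. The 8 assembly factors summed to 90.1 and 96.9 TPM in Old and 126 and 122 TPM in Young libraries, 24.5% lower in Old. The ratio of subunits to assembly factors was 30.9 and 32.5 in Old and 31.2 and 32.1 in Young libraries, so the groups overlapped and the means, 31.7 ± 1.16 in Old and 31.7 ± 0.609 in Young (SD, n = 2 each), differed by less than their spread. An exact permutation test of 2 against 2 libraries reaches no p smaller than 0.333, and no test of this ratio was made. Outside the immunoglobulin genes, subunits made up 0.321% and 0.363% of TPM in Old and 0.397% and 0.395% in Young libraries, and the share was 13.6% lower in Old, as against 13.9% lower for assembly factors.

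Core and accessory subunits moved somewhat apart in the sums, but within the spread of the libraries. Core subunits summed to 603 and 643 TPM in Old and 765 and 802 TPM in Young libraries (20.5% lower in Old), and accessory subunits to 2182 and 2511 TPM in Old and 3168 and 3111 TPM in Young libraries (25.3% lower). The ratio of core to accessory subunits was 0.276 and 0.256 in Old and 0.241 and 0.258 in Young libraries. Old replicate 2 lay between the Young libraries, so the groups overlapped.

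**Figure D3:**
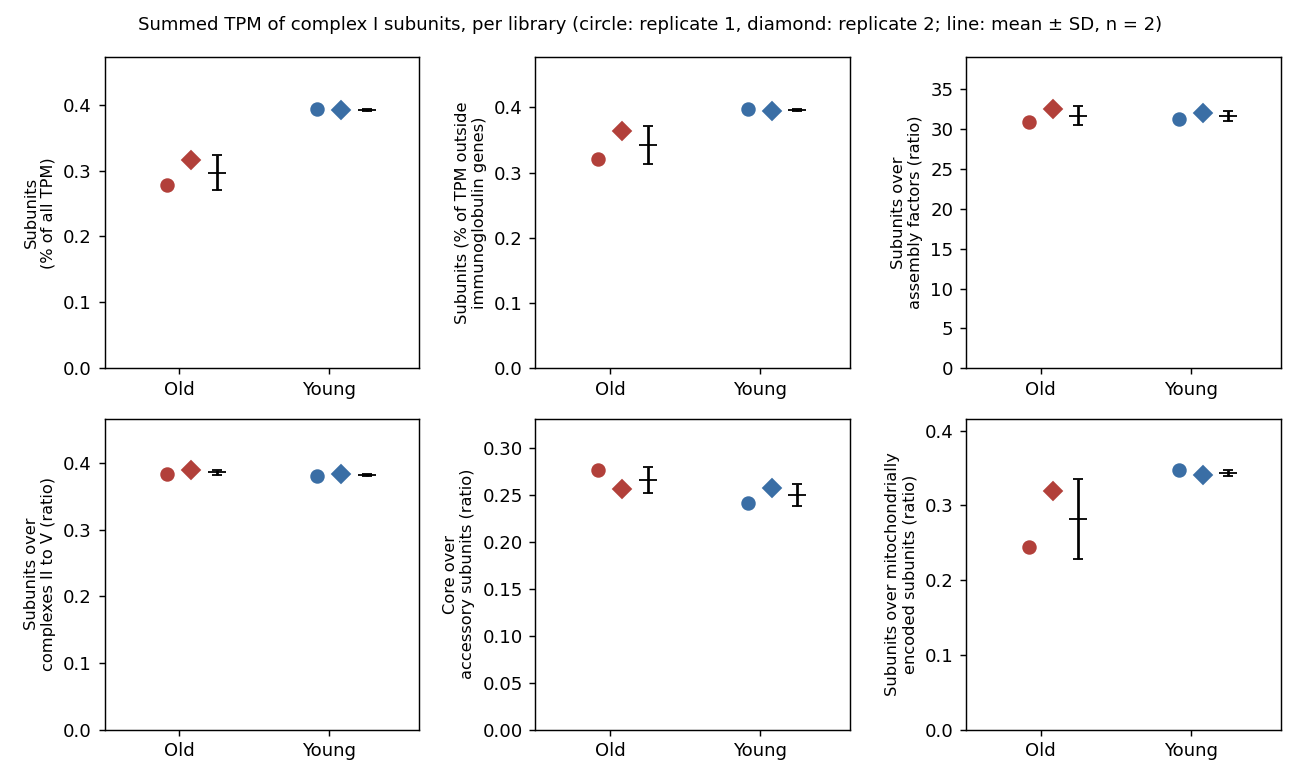
Summed TPM of complex I subunits in each library, as a percentage of all TPM, as a percentage of TPM outside immunoglobulin genes, and as ratios to assembly factors, to complexes II to V and to mitochondrially encoded subunits, with the ratio of core to accessory subunits; circles are replicate 1, diamonds replicate 2, and lines the mean ± SD (n = 2). The shares are lower in both Old libraries, the ratios to assembly factors and to complexes II to V are nearly the same in all 4, and the ratio to mitochondrially encoded subunits is lowest in Old replicate 1.

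The nuclear-encoded genes of the other respiratory chain complexes were lower by a similar amount. Of 40 genes of complexes II to V, 34 fell as deposited, with a median log2 change of -0.39. As deposited 14.7% of all genes tested fell, and 28.2% of those averaging 20 TPM or more. With immunoglobulin genes removed 3 fell, with a median of -0.20, against 3.15% of all genes (5.28% of those averaging 20 TPM or more). The 3 cannot be told from those shares. At an unadjusted p under 0.05, 28 were then lower, against 10.3% of all genes. Cox7a2, a subunit of cytochrome c oxidase, had the smallest p of them, at 198 and 212 TPM in Old and 299 and 291 TPM in Young libraries (log2 change -0.53, limma adjusted p = 0.0152). Atp5l, a subunit of the ATP synthase, had the largest, at 28.1 and 33.6 TPM in Old and 39.2 and 36.6 TPM in Young libraries (log2 change -0.29, limma adjusted p = 0.108). The ratio of summed complex I subunits to these 40 genes was 0.383 and 0.389 in Old and 0.381 and 0.383 in Young libraries, a spread of a few thousandths. Ndufa4, now assigned to cytochrome c oxidase despite its name, was at 135 and 150 TPM in Old and 195 and 197 TPM in Young libraries and fell by 0.46 (SE 0.07, limma adjusted p = 0.0226). Ndufa4l2, its relative known to be induced by hypoxia, was at 1.63 and 0.882 TPM in Old and 0.263 and 0.361 TPM in Young libraries, higher in both Old libraries, but its mean was under 1 TPM and it was not tested. The 5 letter-suffixed copies were below the same minimum, and no library had more than 1.15 TPM of any of them.

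The core subunits encoded in the mitochondrial genome did not pass the test. Of 7 such genes 6 were tested and 0 changed by limma's adjusted p, where 14.7% of all genes tested fell and 5.2% rose. At an unadjusted p under 0.05 there were 0, and the median log2 change was -0.06. The sign of that median change depended on the scaling and on the Old libraries. It was 0.13 with immunoglobulin genes removed, 0.0047 with median-ratio scaling and 0.086 with quantile normalization. Without Old replicate 1 it was -0.19, and without Old replicate 2 it was 0.075. The gene mt-Nd1 had the smallest p, at 3701 and 3321 TPM in Old and 4008 and 4043 TPM in Young libraries (log2 change -0.20, limma adjusted p = 0.160), and passed under quantile normalization (adjusted p = 0.0372) and without Old replicate 1 (adjusted p = 0.0490). The largest p was that of mt-Nd2, at 2144 and 1709 TPM in Old and 1975 and 1994 TPM in Young libraries (log2 change -0.05, limma adjusted p = 0.778), where the Old libraries lay on both sides of the Young ones. The 7 genes summed to 11417 and 9867 TPM in Old and 11339 and 11471 TPM in Young libraries. Nuclear subunits over this sum gave 0.244 and 0.320 in Old and 0.347 and 0.341 in Young libraries, lower in both Old libraries but by a small margin in Old replicate 2. The libraries were made by poly(A) selection. In them mt-Nd3 and mt-Nd4l were listed at under 2 TPM in every library, while mt-Nd6 was at 2049 and 1785 TPM in Old and 2011 and 1980 TPM in Young libraries. The part of that selection in these values was not tested.

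Of 13 other assembly factors of complex I, not named Nduf, 3 fell as deposited, where 14.7% of all genes tested fell, and the median log2 change was -0.22. Dmac1, which acts on the distal membrane arm, was at 54.9 and 64.1 TPM in Old and 89.8 and 82.3 TPM in Young libraries and fell by 0.53 (limma adjusted p = 0.0282). Lyrm2 was at 28.7 and 26.0 TPM in Old and 36.0 and 34.4 TPM in Young libraries (log2 change -0.35, limma adjusted p = 0.0430), and Ecsit, a partner of Ndufaf1, fell by 0.36 (limma adjusted p = 0.0458). Acad9, another partner of Ndufaf1, was at 13.2 and 11.4 TPM in Old and 12.4 and 12.6 TPM in Young libraries (log2 change -0.02, limma adjusted p = 0.894), with the Young libraries inside the range of the Old ones. Nubpl, which delivers iron-sulphur clusters, had the largest p, at 2.83 and 3.15 TPM in Old and 3.35 and 2.50 TPM in Young libraries (log2 change 0.03, limma adjusted p = 0.912). After removal of immunoglobulin genes 0 of the 13 passed by limma's adjusted p, and the median was -0.03. At an unadjusted p under 0.05 1 of them was lower, against 10.3% of all genes.

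Among regulators of mitochondrial biogenesis 1 of 10 tested fell, where 14.7% of all genes tested fell, and the median was -0.16. With immunoglobulin genes removed the median was 0.02 and 4 of the 10 were negative, against 39.6% of all genes. By limma's adjusted p 0 then passed, and 1 was lower at an unadjusted p under 0.05, against 10.3% of all genes. Nrf1, which encodes the factor whose letters were searched in the promoters, was at 30.2 and 29.8 TPM in Old and 38.7 and 38.3 TPM in Young libraries (log2 change -0.35, limma adjusted p = 0.0277), and -0.17 (adjusted p = 0.156) with immunoglobulin genes removed. Tfam, which packages and transcribes mitochondrial DNA, was at 13.9 and 13.1 TPM in Old and 16.9 and 16.9 TPM in Young libraries (limma adjusted p = 0.0625). Values ran the other way for Esrra, a nuclear receptor that acts on mitochondrial genes, at 34.8 and 31.9 TPM in Old and 28.8 and 33.3 TPM in Young libraries (log2 change 0.10, limma adjusted p = 0.486), and for Ppargc1b, a relative of Ppargc1a, at 3.23 and 3.32 TPM in Old and 1.98 and 2.65 TPM in Young libraries (log2 change 0.37, limma adjusted p = 0.168). The largest p was that of Tfb2m, a mitochondrial transcription factor, with a log2 change of -0.04 (limma adjusted p = 0.734). Ppargc1a, the coactivator PGC-1alpha, was under 0.2 TPM in every library and was not tested.

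The Old libraries differed from each other in these genes. Old replicate 1 was below Old replicate 2 in 34 of 37 subunits (91.9%) and in 40 of 40 genes of complexes II to V, whereas this held for 32.2% of all genes tested. The median difference, Old replicate 1 minus Old replicate 2, was -0.19 on the log2 scale for subunits and 0.09 for all genes. Among assembly factors it held for 5 of 8. Between the Young libraries, replicate 1 was below replicate 2 in 20 of 37 subunits, against 66.5% of all genes. The same order of the Old libraries was seen in 9 of 9 megakaryocyte markers tested, with a median difference of -0.46, but in those markers the Young libraries were ordered too, in 9 of 9.

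Transcript length went with this order, a check chosen after seeing the data. Lengths came from the GENCODE vM21 annotation of GRCm38, another build than the submitters' processing notes name, and were matched by symbol for 97.3% of subunits and 94.0% of genes tested. The length was that of the transcript annotated as principal, or else the longest, which may not be the one expressed here. Subunit transcripts were short, with a median of 939.5 nt (763 nt for accessory and 1623 nt for core subunits), against 1308.5 nt for assembly factors and 2448 nt for all genes tested. Ndufb2, the lowest subunit, was given the longest, at 4371 nt, and the correlations below were not repeated without it. Across 36 subunits, longer transcripts had less negative changes (Pearson's r 0.43, Spearman's rho 0.38), and the difference between the Old libraries followed length more closely (r 0.64, rho 0.55). These are correlations across genes that share the same 4 libraries, and genes are not independent replicates. Among all genes averaging 20 TPM or more, Old replicate 1 was below Old replicate 2 in 62.6% of 926 genes under 1000 nt, 57.0% of 1482 genes of 1000 to 2000 nt and 20.5% of 4012 longer ones. The median log2 change in the same classes was -0.26, -0.24 and -0.15. Over all genes tested, without the minimum of 20 TPM, it was -0.05, -0.15 and -0.10, so the shortest class was the least negative. Old replicate 1 was then below Old replicate 2 in 45.5%, 46.2% and 22.3% of genes. The part of length in the lower level of the subunits was not tested.

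**Figure D4:**
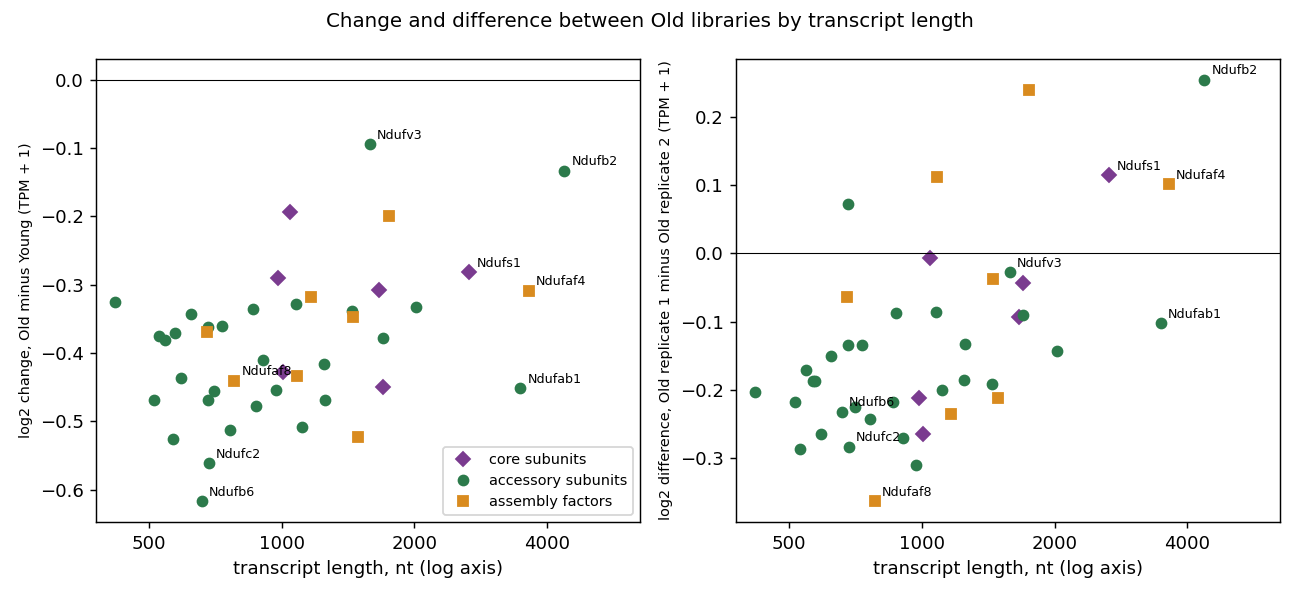
Log2 change, Old minus Young (left), and log2 difference, Old replicate 1 minus Old replicate 2 (right), of TPM + 1 against transcript length in nt on a log axis, for core subunits (diamonds), accessory subunits (circles) and assembly factors (squares) with a known length. Short accessory subunits such as Ndufb6 and Ndufc2 sit lowest on the left, and most transcripts under 1000 nt lie below 0 on the right, while Ndufb2, Ndufs1 and Ndufaf4 lie above it.

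Markers of other cells also differed between the groups, given here as deposited. Erythroid markers summed to 2946 and 3492 TPM in Old and 9891 and 9842 TPM in Young libraries, and 10 of 10 fell. Proliferation markers summed to 1568 and 1484 TPM in Old and 2238 and 2303 TPM in Young libraries, and 9 of 10 fell. Plasma cell markers summed to 40613 and 41064 TPM in Old and 2854 and 2626 TPM in Young libraries, and 9 of 10 rose. B cell markers summed to 289 and 274 TPM in Old and 506 and 455 TPM in Young libraries, and 8 of 10 fell, as did 8 of 10 monocyte and macrophage markers, at 1371 and 1457 TPM in Old and 1972 and 1916 TPM in Young libraries. Of 10 neutrophil markers 1 rose and 1 fell, and of 8 T and NK cell markers 1 fell. Of all genes tested 14.7% fell and 5.2% rose as deposited, and counts of 1 cannot be told from those shares. With immunoglobulin genes removed, 10 erythroid, 7 proliferation, 7 B cell, 4 monocyte and macrophage markers and 1 T and NK cell marker fell. In the same setting 8 plasma cell and 3 neutrophil markers rose. By limma's adjusted p 0 neutrophil and 0 megakaryocyte markers then fell (1 and 5 at an unadjusted p under 0.05). Of all genes 3.15% fell and 8.02% rose after the removal, and 10.3% were lower at an unadjusted p under 0.05. Among megakaryocyte markers 1 of 9 tested fell as deposited, Itgb3, whose adjusted p was 0.0804 after that removal, and Gp1bb was listed near 0. The part of any of these cells in the lower level of complex I genes was not tested.

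Over 6 scalings, the deposited one included, the median of the subunits was -0.38 to -0.20, and its difference from the median of all genes was -0.28 to -0.25. For assembly factors that difference was -0.26 in all 6. The library left out bore on the size in both groups of genes. For subunits the difference from all genes was -0.16 without Old replicate 1 and -0.42 without Old replicate 2. Without Young replicate 1 it was -0.27, and without Young replicate 2 it was -0.31. For assembly factors it was -0.19, -0.33, -0.26 and -0.39 in the same order. Against genes averaging 20 TPM or more the difference for subunits was -0.20 as deposited. The difference between the medians of subunits and assembly factors was -0.022 as deposited and -0.0063 after the removal of immunoglobulin genes, and it turned positive under quantile normalization, at 0.0082, and when Young replicate 2 or Old replicate 1 was left out, at 0.075 and 0.035.

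**Figure D5:**
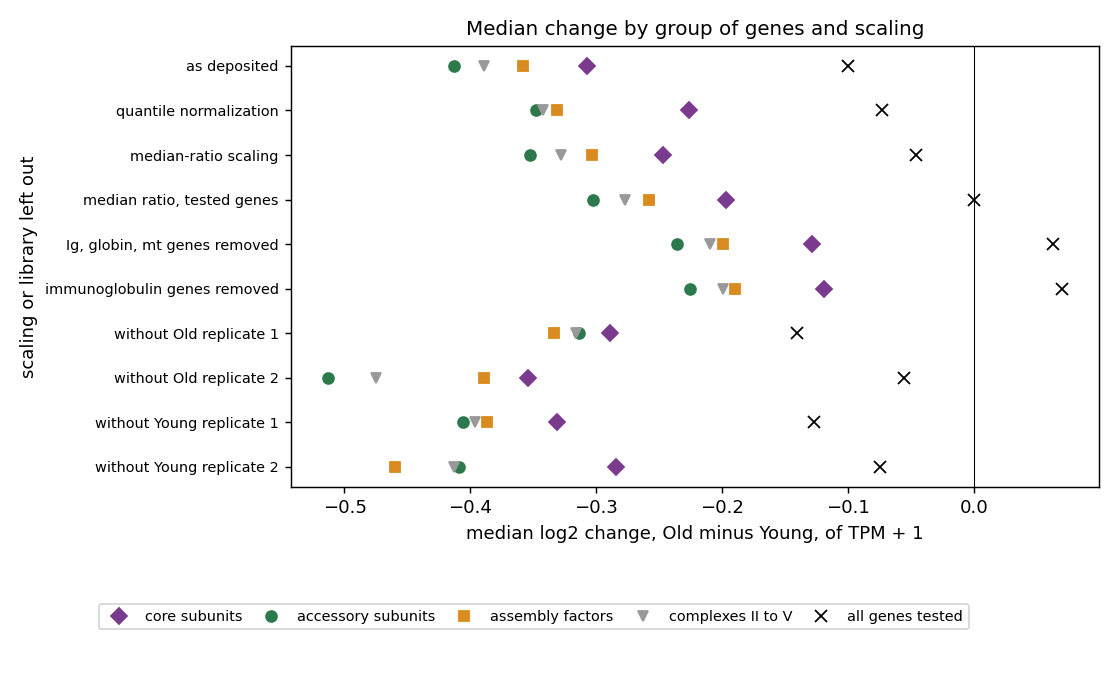
Median log2 change, Old minus Young, of TPM + 1 over core subunits, accessory subunits, assembly factors, complexes II to V and all genes tested, under each scaling and with each library left out. All medians of the respiratory chain groups lie below 0 and below the cross for all genes in the same row, and core subunits lie nearest to it in every row.

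In the authors' deposited table of changed genes, which lists 728 genes lower and 527 higher in old cells, 10 of the 52 genes appeared, all lower. These were Ndufc2, Ndufb6, Ndufa12, Ndufs6, Ndufb3, Ndufb1, Ndufa13, Ndufv2, Ndufa4 and Ndufa3, with log2 fold changes of -0.36 to -0.30 and adjusted p from 0.0175 to 0.0449 in the authors' deposited table. For all 10, dividing the fold by its standard error gives a larger p than the authors' deposited table prints, so these folds may not be on the scale of the changes given above. No assembly factor named Ndufaf was among them, and 15 genes of complexes II to V were. All 10 also fell as deposited in the limma fit, which is not an independent count. In the authors' deposited enrichment table for genes lower in old, a complex I term held 9 of its 37 genes, with a log10 p of -5.69 and a log10 q of -3.84, and the term oxidative phosphorylation held 24 of 115, with a log10 p of -12.6.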

How the data were processed

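RNA abundance was measured by strand-specific RNA-seq of poly(A) RNA in 2 Old and 2 Young libraries, per the labels' protocols. The authors deposited TPM values for 56793 rows, per the file headers, each library summing to a fixed total, so no depth, counting interval or floor can be given. Per the file headers, a table of changed genes deposited by the authors holds log2 fold changes, p-values and a mean normalized count signal, and their enrichment tables hold log10 values of p and q. Trim Galore, STAR, TopHat and DESeq2, and the builds GRCm39 and mm9, appear in the submitters' processing notes with no roles.

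Genes averaging 1 TPM or more over all 4 libraries were fitted on log2(TPM + 1) with limma 3.58.1 in R 4.3.3, Old minus Young. The fit used a variance trend, was two-sided, with Benjamini-Hochberg over all genes tested and a threshold of 0.05, and had 2 residual degrees of freedom. It was tested on simulated data with independent noise in each gene and library. Shifts shared by many genes of a library were not simulated. Counts and medians over members describe them and carry no test. Values given in every library were, by rule, those of the core subunits, assembly factors, Ndufa4, Ndufa4l2, the 5 subunits with the most and the 5 with the least negative change, and members in the authors' table or below the minimum; up to 3 further genes came from each list by smallest p and up to 3 by largest p. Ndufb8, Ndufa1, Ndufa5, Ppargc1a, Ppargc1b and the markers Itgb3 and Gp1bb were named after their values were seen. The members, roles and lists were chosen with earlier results of these data known. Alternatives were other scalings, pseudocount, filters and variance model, a replicate block and each library left out. Promoters (RefSeq, GRCm38.p6) and lengths (GENCODE vM21) were matched by symbol. Figures were drawn with matplotlib 3.10.9 in Python 3.11.15. A single core subunit is counted with its group but not reported on its own here.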

Additional observations from a re-analysis of the deposited data

How the results depend on the processing

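The number of changed genes, 3204 as reported, was 1853 with median-ratio scaling, 1747 with a median ratio over tested genes, 1803 without immunoglobulin genes, 1698 without immunoglobulin, haemoglobin and mitochondrial genes, 130 with no filter and 572 with no variance trend; leaving out 1 library gave 359 (without Young replicate 1) to 2325. The number of complex I genes changed, 29 as reported, was 2, 1, 1, 2, 0 and 0 in the same order and 4 with quantile normalization, and leaving out 1 library gave 0 to 28. The unadjusted count of lower complex I genes behind the 0 was 41 with no filter, against 14.3% of all genes. With no variance trend it was 40, against 25.4% of all genes. Under quantile normalization 1289 of all 16073 genes fell and 902 rose. The other alternatives (pseudocount of 0.1, a mean of at least 5 TPM) gave 28 and 32 complex I genes. Of all genes, 2363 of 16073 fell and 810 rose in the former, and 2727 of 11416 fell and 619 rose in the latter.

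The subunit median was -0.27 with a median ratio over tested genes, -0.20 without immunoglobulin genes and -0.21 without immunoglobulin, haemoglobin and mitochondrial genes, and -0.47 to -0.30 with 1 library left out. The assembly factor median was -0.26, -0.19 and -0.20 under those 3 scalings and -0.46 to -0.33 with 1 library left out. The difference between them was -0.082 to 0.075 with 1 library left out. Ndufv3 turned positive with a median ratio over tested genes (0.016), quantile normalization (0.0067), without immunoglobulin genes (0.093) and without immunoglobulin, haemoglobin and mitochondrial genes (0.083), as did Ndufb2 in the last 2 (0.0079 and 0.00056). Apart from these 6 reversals, named members kept their direction and side of the threshold in 211 cases, lost the call in 142 and gained it in 4. The cause of these differences was not tested.

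Old and Young share replicate numbers, but nothing in the labels ties them, and the deviations of same-numbered libraries correlated at -0.146 over 16073 genes. With a replicate block 1252 genes and 13 complex I genes changed. With crossed numbers, chosen after seeing the data, 4649 genes and 36 complex I genes did. TPM holds no depth, so the precision of low members such as Ndufb2 is not known.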
